A study of Mus musculus with 241 samples.

Results

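The 2 groups of cells described here are early thymic T-cell precursors captured on the C1 microfluidic chip and split by the RNA of a pair of receptor genes. The first group had Il2ra above 1 FPKM (fragments scaled to transcript length and to mapped reads) and Flt3 at or below 1 FPKM. The second had Flt3 above 1 FPKM and Il2ra at or below 1 FPKM. Of 227 deposited C1 cells, 222 had at least 1000 genes above 1 FPKM and were kept, and 5 cells with 197 to 639 such genes were left out. The kept cells held 110 Il2ra+ Flt3- cells (49.5%, 95% exact Clopper-Pearson interval 42.8% to 56.3%) and 66 Flt3+ Il2ra- cells (29.7%, 23.8% to 36.2%). Another 13 cells had both genes above 1 FPKM and 33 had neither.

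The cells came from the thymus of wild-type C57BL/6 mice and had been sorted as lineage-negative, 7AAD-negative (viable), CD44+ Kit+ cells, a gate that does not use either receptor. The same gate and genotype served for 2 droplet (10x) libraries. Bulk RNA came from mice of the same strain with the genotype Bcl11byfp/yfp, a reporter allele that every bulk population carried, the Flt3+ controls included. Those sorts used the same first gate. Flt3+ ETP (early thymic progenitors) were CD25- Flt3+ (2 libraries), and DN2a cells, the next stage, were CD25+ and either YFP- (Bcl11b- DN2a, 3 libraries) or YFP+ (Bcl11b+ DN2a, 3 libraries). No treatment was given, and the labels give no age and do not say which mice each cell or library came from. The p-values below therefore reflect the variation among these libraries alone, part or all of which may be technical.

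Il2ra encodes the interleukin-2 receptor alpha chain, the surface protein CD25, whose appearance marks the DN2 stage of thymocyte development. Flt3 encodes a receptor tyrosine kinase of multipotent and lymphoid progenitors that is lost early in the thymus. Between these states Notch signalling and the factors TCF1, GATA3 and later Bcl11b turn on the T-cell programme, while a set of progenitor regulators is silenced.

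The cells were chosen by their Il2ra and Flt3 values, which are given as a description only. Il2ra in the Il2ra+ cells ran from 1.29 FPKM through a median of 124.2 to 597 FPKM, and the next cells above the lowest had 6.95 and 11.2 FPKM. Flt3 in the Flt3+ cells ran from 1.37 FPKM through a median of 25.8 to 151 FPKM, with 1.92 and 3.96 FPKM next to the lowest. Just outside the threshold, 23 Flt3+ cells held some Il2ra, at most 0.84 FPKM, and 4 Il2ra+ cells held some Flt3, at most 0.39 FPKM. Few cells lay just above the threshold for the gene that their group was positive for.

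**Figure D1:**
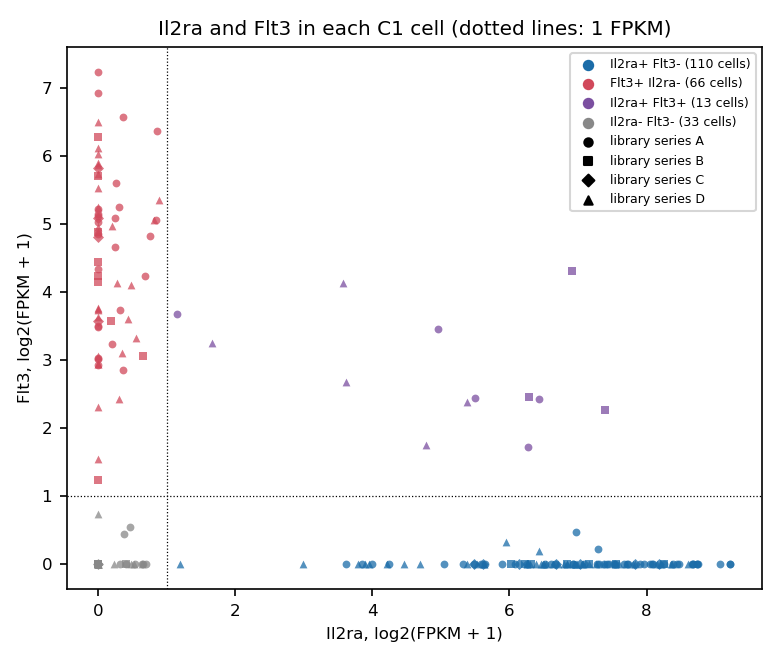
Il2ra (x axis) against Flt3 (y axis), both as log2(FPKM + 1), in each of the 222 kept C1 cells, coloured by class and shaped by library series; the dotted lines stand at 1 FPKM. Most cells lie along an axis, and 13 cells lie above both lines.

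The cells fell into 4 series by the leading digits of their library numbers, called A, B, C and D here in ascending order; the labels do not say what sets them apart. They held 48 and 25, 7 and 9, 7 and 4, and 48 and 28 Il2ra+ and Flt3+ cells, in that order. Depth differed little between the classes, with a median of 4709 genes above 1 FPKM in Il2ra+ cells and 4752.5 in Flt3+ cells (5116.5 and 5441 in series A, 4146 and 4338.5 in series D). Within series B, 1 library held 0 Il2ra+ and 7 Flt3+ cells and another held 7 and 2, so class and library can hardly be told apart there. Wells E6 and E7 of a library of series D, both Flt3+, correlated across genes at 0.841 (log2 values), against 0.689 for the next pair and a median of 0.484, and whether they hold RNA of 1 cell was not tested. Each C1 sample is 1 cell and no animal is named, so each class counts as 1 sample and no test was made on these cells.

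A gene was counted as different where the share of cells above 1 FPKM differed by at least 25 percentage points, with the same sign in each of the 3 series that held at least 5 cells of both classes. Of 11556 genes detected in at least 5% of kept cells, with Il2ra and Flt3 left out, 46 were detected more often in the Il2ra+ cells (0.398% of genes) and 58 less often (0.502%), together 0.9%. Without wells E6 and E7 the counts were 43 and 58. Intervals of shares below are exact 95% intervals and cover counting error only. A share said to be allowed by 0 cells is instead 3 divided by the number of cells.

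Among the regulators of the T lineage, Tcf7, which encodes TCF1, an early Notch-induced factor, differed most. Its level in Il2ra+ cells ran from 0 through a median of 112 to 551 FPKM, and in Flt3+ cells from 0 through 15 to 416 FPKM. It exceeded 1 FPKM in 107 of 110 Il2ra+ cells (97.3%, 92.2% to 99.4%) and in 39 of 66 Flt3+ cells (59.1%, 46.3% to 71%). The ranges of levels overlapped, and Flt3+ cells split into those with and without detected Tcf7. Gata3, a zinc-finger factor required for T-cell development, was detected in 57.3% and 30.3% of cells. That difference was uneven over the series, at 52.9 percentage points in series A and 3.87 in series D, and it was 8.58 without series A and 44.7 without series D. Ikzf2, the Ikaros-family factor Helios, was detected in 59.1% and 27.3%. Bcl11b, the factor that marks T-lineage commitment, was found in 28 of 110 Il2ra+ cells (25.5%, 17.6% to 34.6%) and in 1 of 66 Flt3+ cells (1.52%, 0.0384% to 8.16%), a difference of 23.9 percentage points that fell short of the size rule (34.5 with the series weighted equally, 13.6 above 5 FPKM). Tcf7, Gata3 and Ikzf2 were the members past the size rule among the 16 considered of 20 listed T-lineage regulators, whose median difference was 7.12 percentage points against -0.303 over all genes considered. Lef1 and Ikzf3 of that list were above 1 FPKM in no cell of either class, though Lef1 was called higher in Il2ra+ cells of the droplet libraries.

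The same direction could be tested in libraries that the C1 split did not use. In bulk RNA, Tcf7 (chr11:52252283-52282595, mm10) was 68.5 and 30.4 FPKM in Flt3+ ETP, with 2 libraries, and 303, 309 and 142 FPKM in Bcl11b- DN2a and at 311, 309 and 144 FPKM in Bcl11b+ DN2a. The second Flt3+ library and the last of each DN2a set were made with the SMART-Seq kit and the others with NEBNext, and within each kit every DN2a library lay above the Flt3+ library. Tcf7 was higher in DN2a by 2.18 ± 0.10 on the log2(FPKM + 1) scale (SE, limma on 12 libraries, adjusted p = 3.12e-07). In bulk samples, fewer cells of a type and less RNA per cell cannot be told apart. In the droplet libraries the Flt3+ cells held 65.1 and 55.2 CPM of Tcf7 (UMIs scaled to the total of each class and library) and the Il2ra+ cells 247 and 281 CPM. Gata3 was higher by 0.94 ± 0.19 in bulk (limma adjusted p = 0.00828; not passed by Bcl11b- DN2a alone) and by 1.30 ± 0.09 in 10x (edgeR adjusted p = 2.46e-42). Bcl11b gave 1.98 and 2.20 CPM in droplet Flt3+ cells against 189.3 and 210.5 in Il2ra+ cells. In bulk Bcl11b moved with the kit. Flt3+ ETP had 5.76 FPKM with NEBNext and 0.061 with SMART-Seq, Bcl11b- DN2a had 6.11, 3.08 and 0.596, and Bcl11b+ DN2a had 41, 44.3 and 16.1. Of 18 T-lineage regulators tested in bulk, 7 rose and 2 fell, against 3.03% of all genes higher and 7.08% lower. Bcl11b was 1 of the 7, but its YFP reporter was part of the DN2a gates, so its pooled bulk rise follows from the sort. In Bcl11b- DN2a alone the Bcl11b change was 0.09 and did not pass. In 10x 13 of 18 rose and 2 fell, against 12.2% higher and 15.3% lower.

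Constant-region RNA of the T-cell receptor gamma chain was abundant in the Il2ra+ cells. Tcrg-C1 (chr13:19214103-19217024, + strand) had a median of 892 FPKM in Il2ra+ cells and 0 in Flt3+ cells, with highest cells at 22008 and 6197 FPKM. It was detected in 85.5% (77.5% to 91.5%) and 47% (34.6% to 59.7%) of cells. Where it was detected at all, the median was 1376 FPKM in Il2ra+ cells and 16 FPKM in Flt3+ cells. Tcrg-C2 (chr13:19304649-19307551, - strand) was detected in 69.1% and 25.8%. These constant genes are near-identical copies, so the split of reads between them is uncertain, and they were not matched in the bulk or 10x tables. Of the signalling chains of the receptor, Cd247, the zeta chain, was detected in 41 of 110 and 9 of 66 cells (37.3% and 13.6%), and it rose by 1.13 ± 0.19 in bulk (limma adjusted p = 0.0024) and by 2.18 ± 0.15 in 10x. Cd3g was detected in 3 of 110 and 0 of 66 cells (the latter allows a share of up to 4.55%), and Cd3e in no cell of either class. In 10x, however, Cd3g, Cd3d and Cd3e were called higher in Il2ra+ cells (edgeR, adjusted p under 0.05). Dntt, the template-independent polymerase of V(D)J joining, went the other way, with a median of 159 FPKM in Il2ra+ and 601 FPKM in Flt3+ cells and detection in 81.8% and 100%. Of 8 listed receptor and recombination genes tested in bulk, 1 rose and 1 fell (3.03% and 7.08% of all bulk genes). In 10x 6 of 8 rose and 1 fell (12.2% and 15.3% of all 10x genes).

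Among adaptors of receptor signalling, Trat1, a transmembrane adaptor of the T-cell receptor complex, was detected in 59.1% of Il2ra+ and 19.7% of Flt3+ cells. Its bulk levels were 5.75 and 5.16 FPKM in Flt3+ ETP, 13.6, 24.4 and 54.5 in Bcl11b- DN2a, and 50.1, 79.4 and 148 in Bcl11b+ DN2a. The DN2a libraries all lay above the Flt3+ ETP libraries, by 3.07 ± 0.33 on the log2 scale (limma adjusted p = 0.000115). Trat1 was the single member past the size rule of 14 considered among 18 listed signalling genes, with 11 of 14 differences positive and a median of 9.85 percentage points. In bulk 9 of 17 rose and 3 fell (3.03% and 7.08% of all bulk genes), and in 10x 14 of 17 rose and 2 fell (12.2% and 15.3% of all 10x genes). Lat, the linker that couples the receptor to its kinases, was detected in 69.1% and 45.5% of C1 cells and rose by 0.76 ± 0.19 in bulk and 1.71 ± 0.07 in 10x. Cd7, a surface glycoprotein of early T and NK cells, was detected in 48.2% and 71.2% and fell by 1.61 in bulk and by 1.04 in 10x (limma adjusted p = 0.000125, edgeR adjusted p = 4.76e-45).

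Cytokine and growth-factor genes differed in both directions. Fgf3, a secreted fibroblast growth factor, was rarely detected in Flt3+ cells. It was detected in 47 of 110 Il2ra+ cells (42.7%, 33.3% to 52.5%), up to 172 FPKM, and in 2 of 66 Flt3+ cells (3.03%, 0.369% to 10.5%), up to 25.4 FPKM. In bulk it was 1.10 and 0.104 FPKM in Flt3+ ETP, 75.2, 59.7 and 47.8 in Bcl11b- DN2a and at 50.0, 37.5 and 38.5 in Bcl11b+ DN2a. Both DN2a sorts were far above both Flt3+ libraries (4.98 ± 0.23 on the log2 scale, limma adjusted p = 3.12e-07), while the DN2a sorts did not pass a test against each other (-0.52 ± 0.22, limma adjusted p = 0.392; 2.79% of all bulk genes passed there). Droplet cells gave 2.64 and 3.08 CPM in Flt3+ cells and 74 and 77 in Il2ra+ cells. Il7r, the interleukin-7 receptor, was detected in 48.2% and 15.2% of C1 cells, and rose by 1.69 ± 0.19 in bulk. Il17rb, a subunit of the receptor for interleukin-25, was detected in 52.7% and 19.7%, and rose by 1.82 ± 0.15. These were the cytokine receptors past the size rule among 11 considered of 15 listed, whose median difference was -5.45 percentage points. In bulk 3 of 14 rose and 4 fell (3.03% and 7.08% of all bulk genes), and in 10x 5 of 13 rose and 5 fell (12.2% and 15.3% of all 10x genes). Csf1r, the receptor for macrophage colony-stimulating factor, fell by 2.85 in bulk and by 2.75 in 10x, and was detected in 8.18% of Il2ra+ and 22.7% of Flt3+ C1 cells. Il12a, which encodes an interleukin subunit, was detected in 24.5% and 71.2%, and fell by 3.15 in bulk and by 3.10 in 10x.

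The other genes detected more often in Il2ra+ cells had varied roles. Cpa3, a carboxypeptidase best known from mast cells, had a median of 1024 FPKM in Il2ra+ cells (0 to 6276) and 5.71 FPKM in Flt3+ cells (0 to 3797). In bulk Cpa3 rose from 8.67 FPKM to 98.7 to 271 FPKM with NEBNext and from 32.3 FPKM to 482 and 893 FPKM with SMART-Seq (4.15 ± 0.17, limma adjusted p = 3.12e-07). Ms4a2, a defining mast-cell receptor chain, was above 1 FPKM in no C1 cell of either class, and Mcpt8, a basophil protease, was in 13.6% and 6.06%. Car2, a carbonic anhydrase of erythroid cells, passed the size rule the other way, at 61.8% and 89.4%, and fell by 2.26 in bulk (limma adjusted p = 1.07e-05) and by 2.06 in 10x. In bulk 4 of 9 members of the mast-cell and erythroid list rose and 1 fell (3.03% and 7.08% of all bulk genes). In 10x 4 of 5 rose and 1 fell (12.2% and 15.3% of all 10x genes). The risen members were Cpa3, Mcpt8, Hbb-bt and Hbb-bs in both. The 12 genes of the mast-cell and erythroid list summed to a median of 1397 FPKM (6.56 to 11653) in Il2ra+ cells and 263 FPKM (0.45 to 3972) in Flt3+ cells. Cpa3, with its median of 1024 FPKM in Il2ra+ cells, weighs heavily in that sum. Of 5 members considered, Cpa3 alone passed the size rule as higher and Car2 alone as lower. Ms4a2, Epor, Hba-a1 and Hba-a2 were above 1 FPKM in no cell of either class. Hbb-bt, a beta-globin, was detected in 56.4% and 45.5% of C1 cells and rose by 3.20 ± 0.40 in bulk (limma adjusted p = 0.000277), and the part of erythroid RNA in these results was not tested. Fcer1g, the Fc receptor gamma chain, was detected in 79.1% and 43.9%. Scin, an actin-severing protein, was detected in 92.7% and 59.1%, Deptor, an inhibitor of mTOR, in 71.8% and 33.3%, and Muc13, a transmembrane mucin, in 66.4% and 25.8%. Tifa, an adaptor of TRAF signalling, was detected in 67.3% and 28.8%, Plscr1, a phospholipid scramblase, in 52.7% and 13.6%, and Gse1 also in 52.7% and 13.6%. The Gse1 difference depended on the level, at 12.4 percentage points for cells above 5 FPKM. In bulk these 7 rose by 1.05 (Gse1) to 2.85 (Scin) on the log2 scale, and each also rose in 10x. Scin and Il7r were detected slightly less often in Il2ra+ cells in series C, which has 4 Flt3+ cells.

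**Figure D2:**
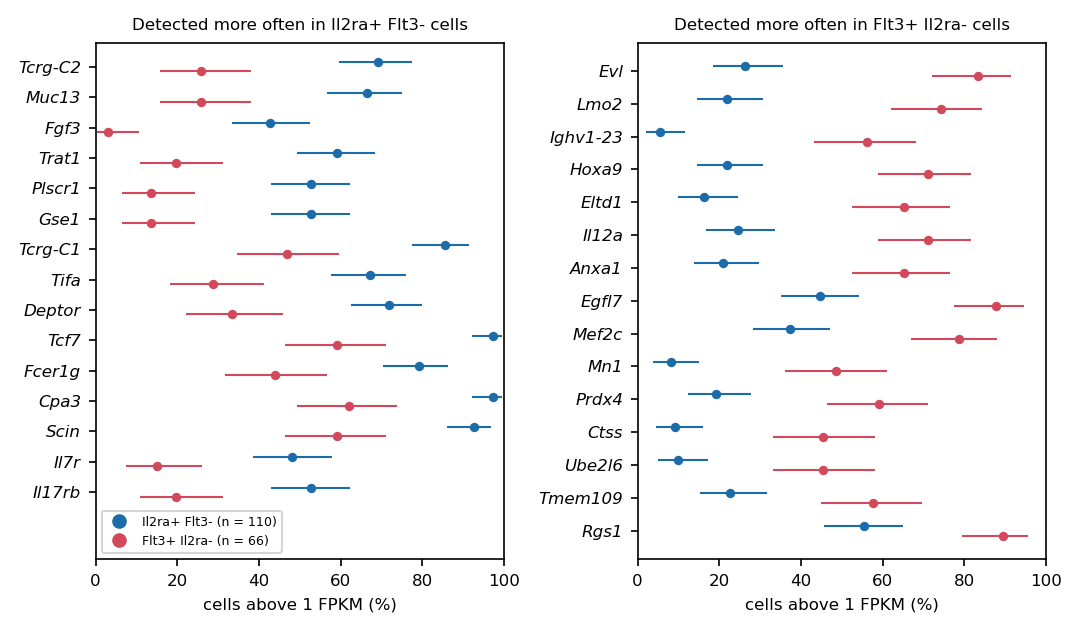
Share of C1 cells above 1 FPKM (x axis, percent) for the 15 named genes detected more often in Il2ra+ Flt3- cells (left) and the 15 detected less often (right). Points are shares with exact 95% intervals for 110 Il2ra+ Flt3- cells (blue) and 66 Flt3+ Il2ra- cells (red); Tcf7 and Cpa3 reach 97.3% in blue, and Ighv1-23 falls to 5.45%.

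Of the progenitor regulators, Lmo2, an adaptor of haematopoietic transcription-factor complexes, was above 1 FPKM in 24 of 110 Il2ra+ cells (21.8%, 14.5% to 30.7%) and 49 of 66 Flt3+ cells (74.2%, 62% to 84.2%). Its median was 0 FPKM in the first and 36 FPKM in the second, with highest cells at 128 and 318 FPKM. Bulk Lmo2 (chr2:103970287-103981878) was 32.6 and 69.4 FPKM in Flt3+ ETP, 6.61, 7.97 and 5.21 in Bcl11b- DN2a and 1.16, 1.00 and 1.52 in Bcl11b+ DN2a. It fell in steps over the 3 sorts with no overlap, by 3.53 from Flt3+ ETP to the mean of both DN2a sorts (SE 0.23, limma adjusted p = 3.93e-06). Hoxa9, a homeobox factor of stem and progenitor cells, was detected in 21.8% and 71.2% of C1 cells and fell by 2.30 in bulk and by 2.28 in 10x. Mef2c, a MADS-box factor of lymphoid and myeloid progenitors, was detected in 37.3% and 78.8% and fell by 1.85 in bulk and by 1.88 in 10x. Meis1, a partner of Hox proteins, was detected in 6.36% and 39.4% and fell by 2.28 in bulk and by 2.78 in 10x.

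Spi1, Bcl11a and Hhex were detected at more similar shares in the classes. Spi1, which encodes PU.1, was above 1 FPKM in 83.6% (75.4% to 90%) of Il2ra+ and 93.9% (85.2% to 98.3%) of Flt3+ cells, with medians of 40 and 68.9 FPKM. Its bulk values were 62.5 and 60.1 FPKM in Flt3+ ETP, 62.4, 50.8 and 52 in Bcl11b- DN2a and 25.8, 13.2 and 19.1 in Bcl11b+ DN2a. Spi1 fell by 0.92 ± 0.20 over both DN2a sorts (limma adjusted p = 0.0134). The Bcl11b- sort overlapped Flt3+ ETP and did not pass the test alone, and the Bcl11b+ sort did not overlap it. Bcl11a was detected in 65.5% and 72.7% of C1 cells, and Hhex in 90% and 89.4%. Both fell in bulk, by 1.07 and by 0.75 (limma adjusted p = 0.000335 and 0.0241), and here too Bcl11b- DN2a alone did not pass. Spi1 also failed with quantile normalization, Hhex without the last library of either DN2a sort, and both without a filter on low values. Gfi1b and Nfe2, factors of erythroid and megakaryocyte precursors, ran against most list members called in bulk and 10x. Gfi1b was detected in 38.2% of Il2ra+ and 18.2% of Flt3+ cells and rose by 1.06 ± 0.18 in bulk and by 0.76 ± 0.16 in 10x. Nfe2 was detected in 98.2% and 86.4% and rose by 0.61 and by 0.37. In all, 4 of 16 considered progenitor regulators of 20 listed were past the size rule, all detected less often in Il2ra+ cells. Over the 16, 7 differences were positive and 9 negative, with a median of -1.21 percentage points. In bulk 12 of 19 fell and 2 rose (7.08% and 3.03% of all bulk genes), and in 10x 14 of 20 fell and 3 rose (15.3% and 12.2% of all 10x genes). Those that rose in 10x were Gfi1b, Nfe2 and Spib, and Spib was above 1 FPKM in no C1 cell of either class. Within the Il2ra+ cells, Lmo2 was detected in 0 of 28 cells with Bcl11b (which allows a share of up to 10.7%) and in 24 of 82 without it (29.3%). Other progenitor regulators were found together with Bcl11b. Mef2c was in 5 of 28 and 36 of 82 of these cells (17.9% and 43.9%). Spi1 was in 20 of 28 and 72 of 82 (71.4% and 87.8%).

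**Figure D3:**
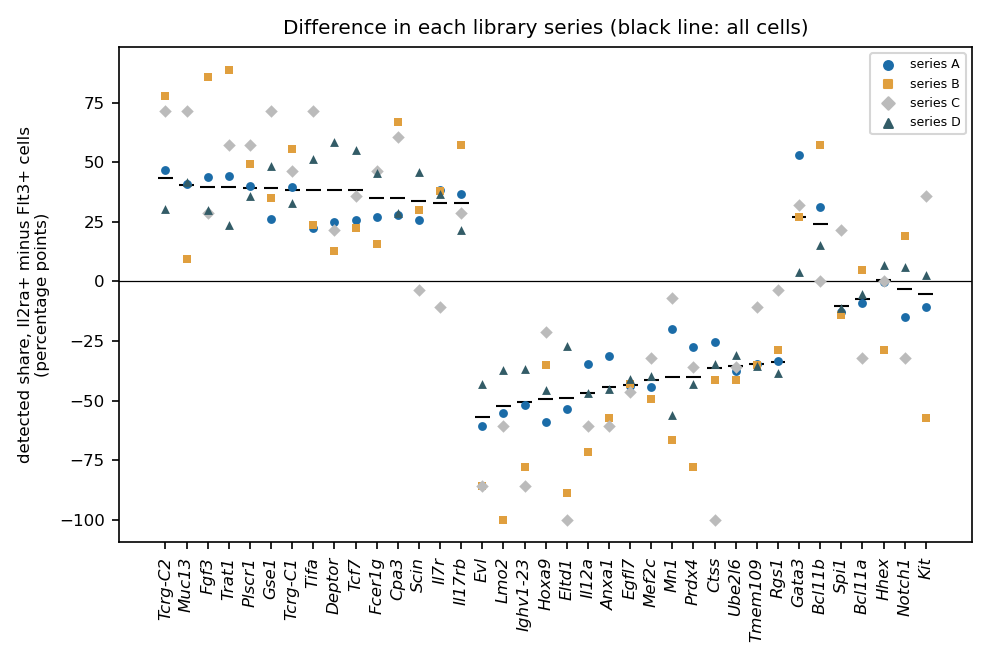
Difference in detected share (y axis, Il2ra+ minus Flt3+ cells, percentage points) in each of the 4 C1 library series for the named genes and 7 further regulators and gate genes; black lines are the pooled differences. Gata3 ranges from 52.9 in series A to 3.87 in series D, and the grey points of series C rest on 4 Flt3+ cells.

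Surface and adhesion genes of progenitors mostly went with Flt3. Eltd1, an adhesion G-protein-coupled receptor also named Adgrl4, was detected in 16.4% of Il2ra+ and 65.2% of Flt3+ cells and fell by 3.39 in bulk and by 3.15 in 10x. Egfl7, a secreted protein of endothelial and progenitor cells, was detected in 44.5% and 87.9% and fell by 2.86 in bulk and by 2.37 in 10x. Cd34, a sialomucin of progenitors, kept broad detection (85.5% and 98.5%) with medians of 82.6 and 328 FPKM. Cd34 was 215 and 372 FPKM in bulk Flt3+ ETP, 56.2, 79.7 and 74.7 in Bcl11b- DN2a and 23.4, 27 and 32.1 in Bcl11b+ DN2a. Cd44, part of the sorting gate, was detected in 50.0% and 68.2%, and Kit, the other gate gene, in 80.9% and 86.4%, a difference of -5.45 percentage points that was -21.7 with the series weighted equally. Itga4, an integrin chain, ran against the list, at 90.9% and 68.2%, and rose by 2.08 ± 0.29 in bulk. Of 15 listed, 12 were considered and 2 were past the size rule. In bulk 7 of 14 fell and 2 rose (7.08% and 3.03% of all bulk genes), and in 10x 11 of 14 fell and 3 rose (15.3% and 12.2% of all 10x genes).

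Evl, an actin regulator of the Ena/VASP family, had the largest difference of the 30 genes named by size. It was above 1 FPKM in 26.4% (18.4% to 35.6%) of Il2ra+ and 83.3% (72.1% to 91.4%) of Flt3+ cells. Bulk Evl was 63.1 and 63 FPKM in Flt3+ ETP, 13, 14.4 and 11.1 in Bcl11b- DN2a and 6.09, 4.72 and 2.7 in Bcl11b+ DN2a, and the sorts did not overlap. It fell by 2.95 ± 0.19 on the log2 scale (limma adjusted p = 3.93e-06). Anxa1, an annexin, was detected in 20.9% and 65.2% and fell by 2.63 in bulk. Mn1, a transcriptional coregulator, was detected in 8.18% and 48.5% and fell by 2.33, though its C1 difference above 5 FPKM was -9.09 percentage points. Prdx4, a peroxiredoxin of the endoplasmic reticulum, was detected in 19.1% and 59.1%, Ube2l6, a conjugating enzyme for ISG15, in 10.0% and 45.5%, and Tmem109 in 22.7% and 57.6%. Rgs1, a regulator of G-protein signalling, had a median of 4.42 FPKM in Il2ra+ cells and 191.8 FPKM in Flt3+ cells, with detection in 55.5% and 89.4%. These last 4 fell by 1.54, 2.32, 0.98 and 1.89 in bulk, and each also fell in 10x. Ighv1-23 (chr12:114764450-114764883, - strand), an immunoglobulin variable segment, was detected in 6 of 110 and 37 of 66 cells. It was not matched in bulk or 10x, and it belongs to a family of similar segments that can share reads, so its value is uncertain.

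Some myeloid genes were detected less often in Il2ra+ cells. Ctss, a lysosomal cathepsin, was detected in 9.09% of Il2ra+ and 45.5% of Flt3+ cells and fell by 3.72 in bulk and by 3.43 in 10x. Cd33, a sialic-acid-binding lectin, was detected in 17.3% and 42.4%, and Lyz2, the lysozyme of myeloid cells, in 56.4% and 84.8%. Ctss and Cd33 belong to a list of immunoreceptor adaptors and myeloid receptors, with 9 of 10 members considered. Of these, Ctss, Cd33 and Anxa1 passed the size rule as lower and Fcer1g as higher. In bulk 3 of 9 fell and 1 rose, against 7.08% and 3.03% of all bulk genes. In 10x 3 of 9 fell and 2 rose (Fcer1g and Clec12a), against 15.3% and 12.2% of all 10x genes. Lyz2 alone was past the size rule of the 6 considered members of the myeloid and granulocyte list. Of the myeloid and granulocyte list, S100a9, Ngp, Camp and Mmp8 were above 1 FPKM in no cell of either class. The 14 members summed to a median of 148 FPKM (0 to 2123) in Il2ra+ cells and 308 FPKM (0 to 14967) in Flt3+ cells. The part of rare myeloid cells in these differences was not tested. In bulk 5 of 10 fell and none rose (limma, adjusted p under 0.05), against 7.08% and 3.03% of all bulk genes. The fallen genes were Lyz2, Mpo, Prtn3, Elane and Csf3r. In 10x 4 of 9 fell and 2 rose (Ctsg and Elane), against 15.3% and 12.2% of all 10x genes. Elane thus had opposite calls, at -1.53 ± 0.33 in bulk and 1.06 ± 0.36 in 10x.

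Marker lists of other cell types held members at 0 cells and members that were detected. For B cells, Ebf1, Pax5, Vpreb3, Igll1 and Ms4a1 were above 1 FPKM in no cell of either class, while Cd79b, a chain of the B-cell receptor, was in 55.5% and 51.5%. The 10 members summed to medians of 25.7 FPKM (0 to 269) and 3.56 FPKM (0 to 197). Neither of 2 members tested in bulk passed, and in 10x Vpreb1 rose and Ebf1 fell, of 3 tested (12.2% and 15.3% of all 10x genes). For natural killer and innate lymphoid cells, Ncr1, Tbx21 and Eomes were at 0 cells, while Nkg7, a granule protein, was in 96.4% and 100%. The 14 members of that list summed to medians of 324 FPKM (0 to 1448) in Il2ra+ cells and 439 FPKM (131 to 1735) in Flt3+ cells. In bulk 4 of 9 fell (Klrd1, Nkg7, Nfil3 and Id2) and 1 rose (7.08% and 3.03% of all bulk genes). In 10x 5 of 10 fell and 4 rose (15.3% and 12.2% of all 10x genes). For dendritic cells, Clec9a, Batf3 and Cd209a were at 0 cells. Cd74, the class II invariant chain, was in 4.55% and 19.7% of C1 cells and fell by 3.37 in bulk. H2-Ab1, a class II chain, was in 21.8% and 31.8%, and Ccr2, a chemokine receptor, in 14.5% and 30.3%. In bulk and in 10x Ccr2, Cd74, H2-Ab1 and H2-Aa fell and Itgax rose, of 6 tested. Over all genes, 7.08% fell and 3.03% rose in bulk, and 15.3% and 12.2% in 10x. The part of dendritic cells in these results was not tested. The 11 dendritic-cell members summed to medians of 34.4 FPKM (0 to 426) and 68.6 FPKM (0 to 584). Cd8a and Cd8b1, of later thymocytes, were at 0 cells. No member of these 4 lists was past the size rule.

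The Notch list did not separate the C1 classes by detected share, but most of its members were called in 10x. Notch1, the receptor that starts the T-cell programme, was detected in 72.7% and 75.8% of cells with medians of 6.98 and 7.46 FPKM, and its bulk difference was 0.02 ± 0.17 (limma adjusted p = 0.957). Hes1, a Notch-induced repressor, was detected in 85.5% and 83.3%. No member of 7 considered among 11 listed was past the size rule, with differences between -7.58 and 2.12 percentage points. In bulk 1 of 9 fell (Myc) and none rose at a limma adjusted p under 0.05 (7.08% and 3.03% of all bulk genes). In 10x 5 of 9 rose and 3 fell (12.2% and 15.3% of all 10x genes). Notch1, Notch3, Hes1, Dtx1 and Ptcra rose there, and Notch2, Myc and Nrarp fell. The Notch1 rise was 0.41 ± 0.06, a call lost without the library block. For the cell cycle, none of 20 S-phase and 22 G2 and M genes was past the size rule, and 16 and 20 of them were detected less often in Il2ra+ cells, with medians of -6.52 and -5.00 percentage points. In bulk 2 of 20 S-phase genes rose (3.03% of all bulk genes) and no G2 and M gene passed limma's test. In 10x 5 of 20 S-phase genes rose and 9 of 22 G2 and M genes fell (12.2% and 15.3% of all 10x genes). The 12 housekeeping genes had a median difference of 0 percentage points. In bulk none of the 12 passed. In 10x 6 of 12 fell and none rose (15.3% and 12.2% of all 10x genes), with a median log2 change of -0.12 over the list.

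Over the whole C1 comparison, 40 of the 46 genes detected more often in Il2ra+ cells could be tested in bulk. Of these, 37 were higher in DN2a than in Flt3+ ETP, 3 did not pass and 0 were lower, against 10.1% of all bulk genes called (limma, adjusted p under 0.05). In 10x 39 of 42 were higher and 0 lower, against 12.2% of all 10x genes called higher (edgeR, adjusted p under 0.05). Of the 58 detected less often, 48 of 53 were lower in bulk and 49 of 53 in 10x, with 0 higher in either. Over all genes, 7.08% were called lower in bulk and 15.3% in 10x. The same direction passed in both for 37 of 46 and 45 of 58, and the share of all genes that did so was not computed. Median log2 changes were 1.65 and -1.54 in bulk and 1.5 and -1.51 in 10x, against -0.004 and -0.0006 over all C1 genes considered and tested. Every DN2a library lay above the Flt3+ ETP library of its own kit for 38 of the 40 genes and below it for 49 of the 53, against 12.8% and 18.2% of all bulk genes. Without a kit term 15 of 40 and 21 of 53 passed, and Plscr1, Gse1, Tifa, Fcer1g, Cpa3, Il17rb, Anxa1, Prdx4, Tmem109, Rgs1, Gata3, Bcl11b, Spi1 and Hhex were among those that did not. Without Flt3+ ETP replicate 1, 32 and 39 passed, and without replicate 2, 31 and 34. Tmem109, Spi1 and Hhex did not pass without either, nor did Gata3 and Bcl11b without replicate 2. The Spearman correlation across genes of the C1 difference in share was 0.330 with the bulk change (9985 genes) and 0.352 with the 10x change (9904 genes), as a description, since genes are not replicates.

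**Figure D4:**
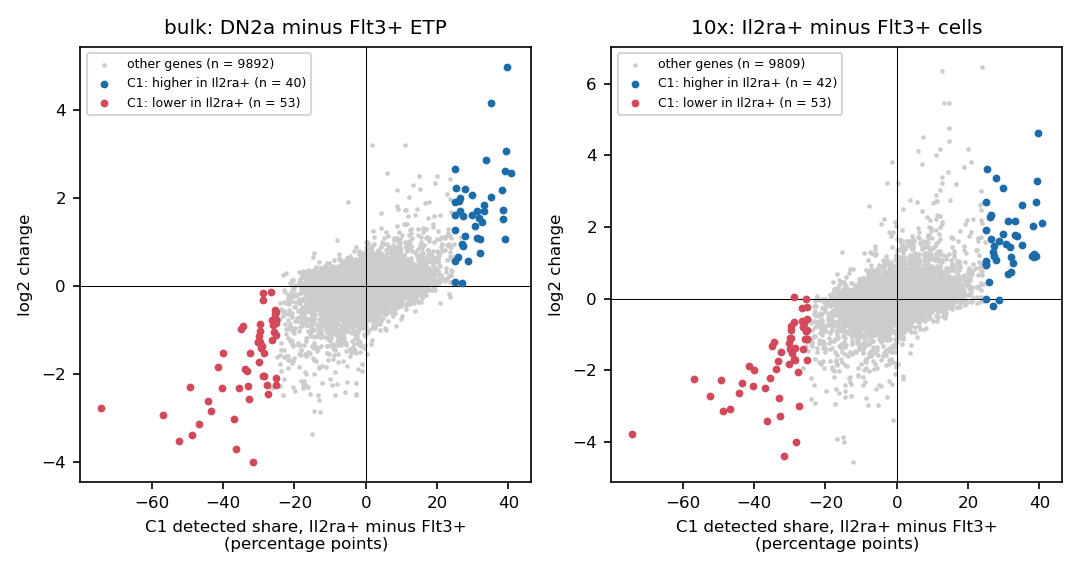
C1 difference in detected share (x axis, percentage points) against the log2 change in bulk (left, DN2a minus Flt3+ ETP) and 10x (right, Il2ra+ minus Flt3+ cells), 1 point per gene. The 40 and 42 genes of the C1 Il2ra+ side (blue) and the 53 of the Flt3+ side (red) lie mostly on opposite sides of 0, with medians of 1.65 and -1.54 in bulk.

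The droplet classes were drawn by UMIs, at least 1 of the class gene and 0 of the other, in cells that had 1000 or more genes and took less than 10% of UMIs from mitochondrial genes. Library 1 gave 2584 Il2ra+ and 447 Flt3+ cells of 4878 kept, and library 2 gave 3938 and 634 of 8434. Median UMIs were 8760 and 9892 in library 1 and 6646 and 6709.5 in library 2. The libraries shared 57 barcodes. Both class genes were seen in 1.29% and 0.984% of droplet cells against 5.86% of C1 cells; depth and chemistry differ between them.

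The 15 named genes of each side were also counted cell by cell. Il2ra+ cells held a median of 11 Il2ra-side genes (5 to 15) and 3 Flt3-side genes (0 to 9). Flt3+ cells held 5 (0 to 10) and 10 (2 to 15), and these counts follow from how the genes were chosen. The cells the rule left out are a separate set. The 13 cells with both receptors held a median of 8 Il2ra-side genes (5 to 13) and 7 Flt3-side genes (1 to 10), and the 33 cells with neither held 6 (0 to 12) and 6 (1 to 12). Both sets had medians between those of the classes on both counts. Tcf7 was detected in 12 of 13 cells with both receptors and in 21 of 33 with neither, Lmo2 in 8 of 13 and 15 of 33, and Bcl11b in 1 of 13 and 0 of 33.

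**Figure D5:**
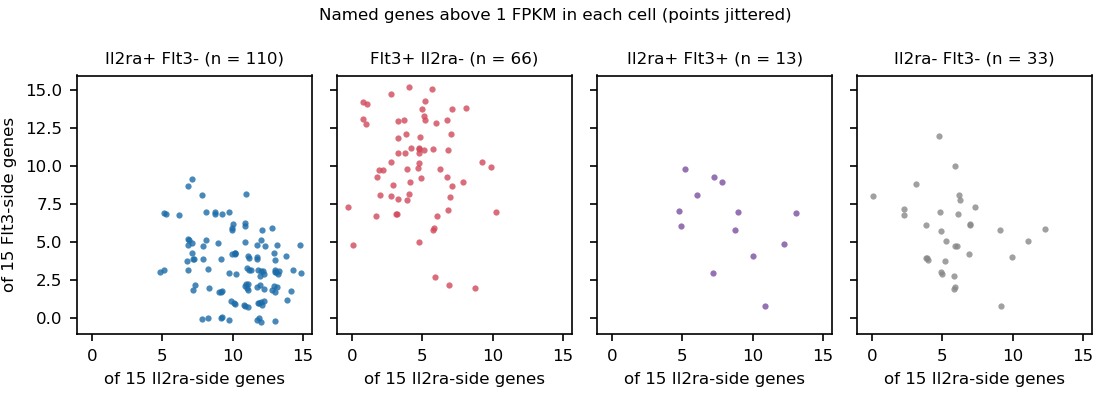
Number of the 15 Il2ra-side genes (x axis) and of the 15 Flt3-side genes (y axis) above 1 FPKM in each C1 cell, with a panel for each class and points jittered. Cells with both receptors (13) and with neither (33) have medians of 8 and 7, and of 6 and 6.

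To show what lies before the start of genes on each side, the promoters of Fgf3, Hoxa9 and Flt3 are printed from RefSeq (GRCm38.p6, the 250 bases before the start). The first was rarely detected in Flt3+ cells, the second was detected more often there, and the third is a class gene. Capitals mark, on either strand, the letters CTTTGA (a TCF core), AGATAA (for Gata3 and its family) and AGGAAG (PU.1 and ETS); TGTGGT (RUNX) and GTGGGAA (CSL, the Notch effector) were searched too.
Fgf3, chr7:144838362-144838611, + strand: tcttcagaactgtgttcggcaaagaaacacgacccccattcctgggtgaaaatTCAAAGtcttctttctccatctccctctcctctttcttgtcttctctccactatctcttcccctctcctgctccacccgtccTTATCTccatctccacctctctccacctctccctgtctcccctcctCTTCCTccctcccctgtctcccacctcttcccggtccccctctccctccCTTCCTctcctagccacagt
Hoxa9, chr6:52227371-52227620, - strand: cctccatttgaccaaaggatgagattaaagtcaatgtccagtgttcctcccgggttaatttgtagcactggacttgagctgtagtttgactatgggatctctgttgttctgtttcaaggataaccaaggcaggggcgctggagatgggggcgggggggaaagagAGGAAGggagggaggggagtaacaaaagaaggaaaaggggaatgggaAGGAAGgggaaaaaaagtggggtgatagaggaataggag
Flt3, chr5:147400490-147400739, - strand: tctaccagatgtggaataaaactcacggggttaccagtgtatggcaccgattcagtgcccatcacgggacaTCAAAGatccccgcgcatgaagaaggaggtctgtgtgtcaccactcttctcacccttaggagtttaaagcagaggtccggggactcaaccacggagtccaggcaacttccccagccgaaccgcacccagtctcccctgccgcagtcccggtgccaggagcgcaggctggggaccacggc
The TCF core was in 15.9% of 44 windows (31 genes) of the C1 Il2ra+ side, in 4.55% of 66 windows (48 genes) of the Flt3+ side and in 13.8% of all 32851 windows. The GATA core was in 13.6%, 4.55% and 9.99%, and the RUNX core in 9.09%, 21.2% and 14%. The PU.1 and ETS core was in 27.3%, 25.8% and 29.5%, and the CSL core in 11.4%, 4.55% and 5.42%. Windows of 1 gene can overlap, and a match describes letters, not binding.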

How the data were processed

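The C1 values are FPKM per gene that the authors deposited for each cell (43346 genes). Per the submitters' processing notes the C1 and bulk samples used STAR 2.4.0 and RSEM 1.2.25 on mm10, and HOMER and edgeR 3.6.8 are also named for bulk. The bulk values are FPKM, as deposited by the authors, for 24506 gene models in 12 libraries. The 10x values are UMI counts deposited by the authors from Cell Ranger 2.0. Read totals of single C1 cells are unknown, so depth is given as genes above 1 FPKM.

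Bulk genes above 1 FPKM in at least 2 libraries were tested with limma 3.58.1 (trend, log2(FPKM + 1), terms for population and kit; R 4.3.3), which understates folds of low genes. The contrast was the mean of both DN2a sorts minus Flt3+ ETP. SMART-Seq columns were assigned by population name, since the other libraries carry their numbers. Droplet UMI counts were summed by class within each of 2 libraries and tested with edgeR 4.0.16 (quasi-likelihood, TMM, library as block); no doublet caller was run. Their spread comes from 2 libraries. P-values were Benjamini-Hochberg adjusted over all genes tested, at 0.05. C1 genes were matched by gene ID or symbol, 10062 to bulk and 10279 to 10x of 11558. The scripts were tested on simulated data.

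The text names the 15 largest differences in share on each side past the size rule, without predicted genes, 7 further regulators and gate genes (Gata3, Bcl11b, Spi1, Bcl11a, Hhex, Notch1 and Kit), and up to 4 examples for each of 18 lists. Single genes beyond that rule (Lef1, Hes1, Cd34 and the markers listed at 0 cells, among others) were chosen after their values were seen. The members and lists were chosen with earlier results of these data known.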

Additional observations from a re-analysis of the deposited data

Results flagged for a closer look

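The bulk DN2a libraries were pooled above. Of 34 named genes tested in bulk, 14 differed between the Bcl11b+ and Bcl11b- sorts (limma on 12 libraries, adjusted p under 0.05). That count leaves out Bcl11b, whose reporter defined the sorts. Of all bulk genes, 2.79% differed. The differences below are Bcl11b+ minus Bcl11b- DN2a on the log2(FPKM + 1) scale, with 3 libraries a sort. On the Il2ra+ side, Trat1 was higher in the Bcl11b+ sort by 1.63 ± 0.33 (limma adjusted p = 0.0209), Il7r by 1.21 ± 0.19, Cpa3 by 0.94 ± 0.17 and Il17rb by 0.78 ± 0.15, while Gse1 was lower, at -0.59 ± 0.14 (limma adjusted p = 0.0488). On the Flt3+ side all were lower in the Bcl11b+ sort: Lmo2 at -1.76, Eltd1 at -1.75, Evl at -1.37, Mef2c at -1.19, Mn1 at -0.92 and Hoxa9 at -0.85. Of the regulators with similar shares in both C1 classes, Spi1 stood at -1.50, Bcl11a at -1.12 and Hhex at -1.01. Gse1 thus had opposite signs in the 2 contrasts, since it was higher in DN2a than in Flt3+ ETP. The contrasts share the DN2a libraries.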

How the results depend on the processing

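Among the named genes, the only ones whose signs were followed, none past the size rule and no passed test changed sign under the alternatives run. Differences near 0 did: in C1 Hhex under 4 settings (-0.91 to -7.30 percentage points, against 0.61), Kit under 3 (1.52 to 4.24) and Notch1 under 2 (2.71 and 3.42), and in bulk Kit under 3 and Notch1 under 4. The C1 counts of genes higher and lower in Il2ra+ cells (46 and 58) were 93 and 142 with the series weighted equally, 126 and 177 by a mean log2(FPKM + 1) difference of at least 1, and 369 and 597 with a pseudocount of 0.1. They were 106 and 124 at 20 percentage points and 24 and 28 at 30, both limits chosen after seeing the data, and 53 to 72 and 55 to 137 with a series left out (72 and 108 without series A, 137 lower without series D). Bulk counts (367 higher and 857 lower) were 39 and 177 without the kit term, 222 and 516 for Bcl11b- DN2a alone, and 146 to 377 and 388 to 874 with a library left out (146 and 388 without Flt3+ ETP replicate 1, 180 and 447 without replicate 2). Higher bulk counts were 551 with the library-number series as a term and 909 (lower 1099) against the mean of the 3 ETP sorts, a contrast added after seeing the data. Quantile normalization gave 487 and 661 (42.4% higher against 30.0%). The titles share replicate number 1 between Flt3+ ETP and each DN2a sort, and the SMART-Seq libraries carry no replicate number. Library numbers lie close within each of these sets, but the labels do not say whether a set shares mice. The replicate block counted the SMART-Seq Flt3+ ETP library as replicate 2, beside NEBNext DN2a libraries, so it did not follow these sets. It gave 743 higher and 1044 lower. The 10x counts (1402 and 1759) were 602 and 770 without the replicate block, where the library is the block, 624 and 808 with classes of at least 2 UMIs, and 404 and 628 with DESeq2 1.42.0. Of the C1 genes, 31 to 38 of 40 and 34 to 49 of 53 passed in bulk with a library left out, and 15 and 21 without the kit term. In 10x, Trat1 did not pass with DESeq2 or with at least 2 UMIs, Kit with DESeq2 or without the block, and Notch1 without the block; Trat1 rests on 1 UMI in the Flt3+ cells of each library. Causes were not tested. With 1 droplet library left out, values have no test.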

Other observations

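Of 12 listed interferon-stimulated genes, 7 fell and none rose in bulk (limma, adjusted p under 0.05; 7.08% of all bulk genes fell), and 7 fell and none rose in 10x (edgeR, adjusted p under 0.05; 15.3% of all 10x genes fell); these were Ifi27l2a, Irf7, Oasl2, Isg15, Ifit1, Ifit3 and Usp18 in both. Irf7, the interferon regulatory factor of type I responses, was 23.9 and 25.6 FPKM in bulk Flt3+ ETP, 6.91, 8.15 and 6.61 in Bcl11b- DN2a and 6.27, 6.71 and 5.74 in Bcl11b+ DN2a, and it fell by 1.75 ± 0.13 (limma adjusted p = 1.01e-05). In the C1 cells none of 10 considered members was past the size rule, with a median difference of -1.97 percentage points. Ifi27l2a came nearest, at 14.5% of Il2ra+ and 40.9% of Flt3+ cells, but series B had the opposite sign.

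The largest differences in share over all genes belonged to transcripts without a gene name, which were chosen after their values were seen. Gm10482 (chr5:10187866-10237890, + strand, a long intergenic RNA) was above 1 FPKM in 7 of 110 Il2ra+ and 55 of 66 Flt3+ cells (6.36% and 83.3%). 1700003C15Rik (chr5:11689253-11769308, - strand, also a long intergenic RNA) was in 10 and 55 cells, with medians of 0 and 148 FPKM, and it kept its sign in all 4 series. 1700003C15Rik was 4.2 and 9.66 FPKM in bulk Flt3+ ETP and at most 0.199 FPKM in the 6 DN2a libraries, and it fell by 2.78 ± 0.23 in bulk (limma adjusted p = 2.13e-05) and by 3.78 ± 0.12 in 10x. Gm28685 (chr5:10235871-10236971, - strand), a processed pseudogene inside the span of Gm10482 on the other strand, was in 4 and 40 cells. Reads of Gm28685 and Gm10482 cannot be told apart without strand.

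A few genes differed in level with little difference in detection. Of 776 genes above 1 FPKM in at least 90% of both classes, 1 was higher and 3 were lower by at least 1 in mean log2(FPKM + 1) with the same sign in the 3 series, a rule chosen after seeing the data. Lck, the kinase of T-cell receptor signalling, had medians of 246 FPKM in Il2ra+ and 146 FPKM in Flt3+ cells and rose by 0.63 in bulk and 0.96 in 10x. Cd48, a surface adhesion protein, had medians of 294 and 751 FPKM and fell by 1.03 in 10x, while its bulk value of -0.44 did not pass. Tspan13 had medians of 189.2 and 344 FPKM, and Rasgrp2, an exchange factor for Rap1, 82.3 and 163 FPKM; both fell in bulk and in 10x.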
